A study of Arabidopsis thaliana with 4 samples.

Results

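The flavonoid and proanthocyanidin genes are 10 loci, chosen by locus identifier out of 37051 in the count table. They are TT4 (AT5G13930), TT5 (AT3G55120), F3H (AT3G51240), FLS1 (AT5G08640), DFR (AT5G42800), LDOX (AT4G22880), BAN (AT1G61720), TT2 (AT5G35550), TT8 (AT4G09820) and TTG1 (AT5G24520). All 10 are present in the table. The choice names loci and applies no cut-off on measured values, but earlier results of these data were known when it was made. Messenger RNA was captured on oligo-dT beads and sequenced from funiculi, which join each seed to the fruit, at stage 17, after fertilisation, from seedstick (stk) mutants and from wild-type plants of the Columbia ecotype. The stk libraries (n = 2) and the wild-type libraries (n = 2) each came from 100 funiculi, and all plants were grown at 22 °C with 16 h of light and 8 h of darkness. The labels name neither the stk allele nor the source of the 2 biological replicates of each genotype, so p-values measure the spread between these samples. Funiculi are bulk tissue, in which fewer cells of a type and less RNA per cell cannot be told apart.

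Flavonoids are made from phenylalanine through a chain of enzymes. Chalcone synthase (TT4), chalcone isomerase (TT5) and flavanone 3-hydroxylase (F3H) make dihydroflavonols, from which flavonol synthase (FLS1) leads to flavonols, and dihydroflavonol reductase (DFR) and leucoanthocyanidin dioxygenase (LDOX) lead to anthocyanidins. Anthocyanidin reductase, encoded by BANYULS (BAN), turns anthocyanidins into the units of proanthocyanidins, the tannins that brown the seed coat. In the innermost layer of the seed coat, BAN is switched on by a complex of the MYB factor TT2, the bHLH factor TT8 and the WD40 protein TTG1. STK is a MADS-box factor that is known to repress BAN in the seed coat, and the comparison asks whether the pathway differs in the funiculus when STK is mutated.

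BAN, DFR and TT8 had no counts in stk replicate 1 and were read in the other 3 libraries, which is why their promoters are shown. Each sequence runs 5′ to 3′ in the direction of transcription, from 250 bases before to 50 bases after the start of the gene as RefSeq annotates it on the TAIR10.1 assembly. The window of BAN lies at chr1:22792754-22793053 on the minus strand, that of DFR at chr5:17165983-17166282 on the minus strand and that of TT8 at chr4:6181631-6181930 on the plus strand. Capitals mark matches, on either strand, to the bHLH-type word CACGTG and to 4 MYB-type words, none of which contains CACGTG. The first of these words is ACCTACC. The next one reads ACCAACC. Another is spelled ACCTAAC. The last in the search was ACCAAAC.
BAN promoter: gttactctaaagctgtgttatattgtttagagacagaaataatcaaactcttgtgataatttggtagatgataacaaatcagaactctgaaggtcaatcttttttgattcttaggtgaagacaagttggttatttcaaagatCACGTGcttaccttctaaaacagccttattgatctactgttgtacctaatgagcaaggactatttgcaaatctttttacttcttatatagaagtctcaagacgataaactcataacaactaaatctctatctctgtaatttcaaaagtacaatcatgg
DFR promoter: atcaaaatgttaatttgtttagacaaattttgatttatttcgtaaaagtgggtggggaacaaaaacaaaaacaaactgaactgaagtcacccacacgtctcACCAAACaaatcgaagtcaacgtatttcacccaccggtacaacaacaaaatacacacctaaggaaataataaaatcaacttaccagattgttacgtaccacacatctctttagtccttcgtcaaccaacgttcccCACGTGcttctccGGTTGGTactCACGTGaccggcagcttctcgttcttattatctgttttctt
TT8 promoter: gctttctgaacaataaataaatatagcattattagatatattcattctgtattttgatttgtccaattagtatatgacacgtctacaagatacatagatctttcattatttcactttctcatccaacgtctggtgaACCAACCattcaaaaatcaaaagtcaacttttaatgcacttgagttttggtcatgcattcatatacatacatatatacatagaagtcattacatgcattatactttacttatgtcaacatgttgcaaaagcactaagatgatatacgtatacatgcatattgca
The BAN window held CACGTG once, the DFR window held it 2 times beside ACCAAAC and ACCAACC, and the TT8 window held ACCAACC once. The ACCAACC of DFR was on the opposite strand, printed as its reverse complement GGTTGGT. The bHLH-type word was present in 5 of the 10 windows (BAN, DFR, TT4, TT5 and F3H) and in 7.68% of 27443 windows of nuclear protein-coding genes. Any of the 4 MYB-type words was present in 4 of the 10 windows (DFR, TT8, FLS1 and TT2) and in 16.3% of all windows. The CArG box, the motif that MADS-box factors bind, was searched only in its exact form (CC, then only A or T bases, then GG). In this form it was found in 0 of the 10 windows and in 3.05% of all windows. A match describes the letters of this window and is no evidence of binding. The lack of one says nothing of sites outside the window, or of sites inside it with a mismatch to the word searched.

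Library totals ranged from 4033589 to 12099218 counts, with stk replicate 1 the shallowest and stk replicate 2 the deepest. Libraries of 1 genotype were not the most alike by Pearson's r of log2 CPM (read counts scaled to library size) across 18092 tested genes. The r was 0.777 between the stk libraries and 0.753 between the wild-type libraries. It was 0.697 between the replicate 1 libraries and 0.878 between the replicate 2 libraries, which are the deepest of each genotype. Between stk replicate 2 and wild-type replicate 1 it was 0.787, and between stk replicate 1 and wild-type replicate 2 it was 0.669. Genes are not independent replicates. STK, which is known to be expressed in the funiculus, was read at 238 and 326 CPM in stk, against 374 and 555 CPM in wild type. These groups do not overlap, but the log2 fold change of -0.72 ± 0.43 (SE) was not called by edgeR (quasi-likelihood test, adjusted p = 1). The STK transcript was thus still read in both mutant libraries, and reads of a mutant transcript cannot verify the genotype.

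Of the 10 genes, 9 were read in at least 1 library, and TT2, FLS1, TTG1 and TT5 made up the bulk of the signal. Levels of different genes were compared as TMM-scaled CPM per kilobase of coding length. By the mean over the 4 libraries the order was TT2 (79.6), FLS1 (62.6), TTG1 (27.3), TT5 (27.0), TT4 (8.76), BAN (5.01), DFR (3.48), LDOX (2.89) and TT8 (1.24), all in CPM per kilobase. TT2 and FLS1 stood above all other members in each library. Neighbours in this order overlapped in their library values, except FLS1 and TTG1: the lowest FLS1 value was 49.8 and the highest TTG1 value was 34.6 CPM per kilobase. TT2, FLS1 and TTG1 together took 70.7% and 81.0% of the members' summed level per kilobase in stk, against 65.9% and 89.5% in wild type. The late enzymes DFR, LDOX and BAN together took 2.94% and 5.79% in stk, against 10.2% and 2.81% in wild type. These shares take F3H as 0, although its row does not show whether the transcript was present, as given below. The RNA of the MYB factor TT2 stood above that of its known partner TT8 and of their known target BAN in every library.

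**Figure D1:**
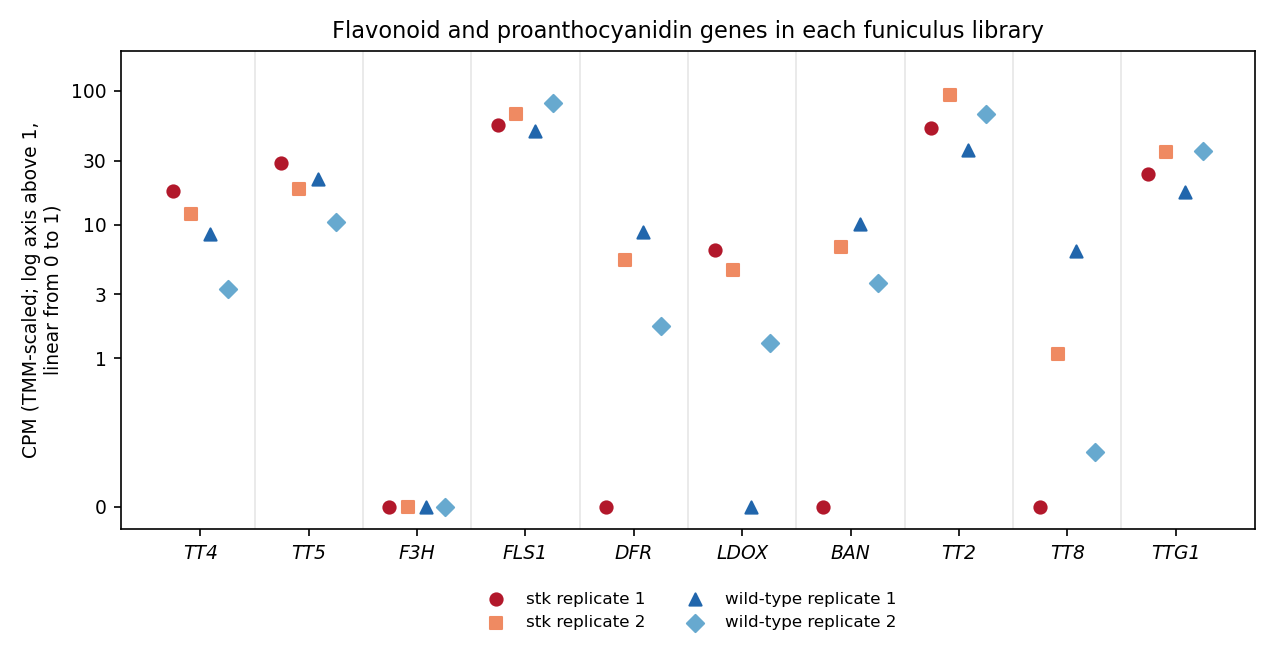
TMM-scaled CPM (y axis, log scale above 1 and linear from 0 to 1) of the 10 genes (x axis) in each library, with 1 point per library and stk left of wild type. TT2 and FLS1 lie between 36.3 and 93.2 CPM throughout, F3H lies at 0 in all 4 libraries, and BAN, DFR and TT8 lie at 0 in stk replicate 1.

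None of the 8 members that passed the filter on low counts was called in edgeR at an adjusted p under 0.05, whereas 0.00553% of the 18092 genes tested (1 gene) were called. At an unadjusted p under 0.05, edgeR gave 0 of the 8 members, against 3.36% of all genes tested. DESeq2 called 0 of the 8 as well, and 0.857% of all genes, with 0.591% higher and 0.265% lower in stk. Limma-voom called 0 of the 8 and 0.205% of all genes, with 0.149% higher and 0.0553% lower in stk. TT8 fell below the filter and F3H had no counts. A missing call here does not show that the genotypes are alike, since the intervals given with each gene are wide. The median log2 fold change of the 8 members was 0.32, with 5 positive and 3 negative, beside a median of -0.075 over all genes tested. The members' median was -0.062, with 4 positive and 4 negative when stk replicate 2 was left out, and 0.52 when wild-type replicate 2 was.

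**Figure D2:**
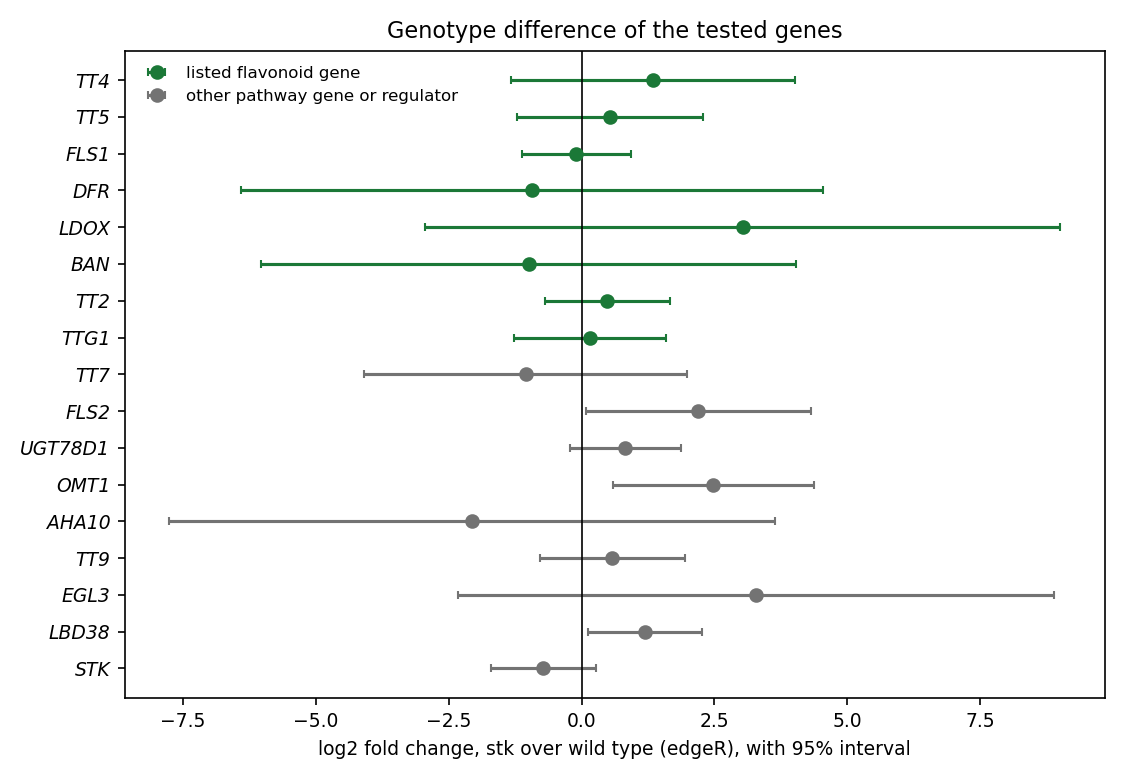
Log2 fold change of stk over wild type from edgeR (x axis), with its 95% interval as a bar, for the 8 tested members and for 9 further pathway genes and regulators (y axis). Every member's interval spans 0; that of FLS1 is the narrowest among the members, from -1.13 to 0.92, and that of LDOX is the widest, from -2.94 to 9.01.

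The early enzymes were read in every library apart from F3H. TT4, the entry enzyme that makes chalcone, stood at 17.9 and 12 CPM in stk, against 8.46 and 3.31 CPM in wild type. Both stk values lay above both wild-type values, at 14.9 ± 4.13 CPM in stk and 5.88 ± 3.64 CPM in wild type (SD, n = 2 each). The log2 fold change was 1.35 ± 1.15 (SE; edgeR adjusted p = 1), with a 95% interval from -1.33 to 4.02. TT4 and LDOX were the 2 of 8 tested members whose groups did not overlap with stk higher, and this holds for 15.9% of all genes tested; in either direction the groups did not overlap for 32.4% of them. TT5, which closes the chalcone to a flavanone, stood at 29.0 and 18.4 CPM in stk, against 22.1 and 10.5 CPM in wild type. The groups overlapped, and the log2 fold change was 0.54 ± 0.75 (SE; edgeR adjusted p = 1). In both genotypes TT4 and TT5 were higher in replicate 1 than in replicate 2.

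F3H, the enzyme between TT5 and the dihydroflavonol branch point, was listed at 0 in all 4 libraries. In the RefSeq annotation 93.8% of its exon bases are shared with AT3G51238, an antisense RNA gene on the opposite strand, which was also listed at 0 in all 4 libraries. The library kit does not mark strand. Of 561 protein-coding loci that share over 90% of their exon bases with another locus, 93.94% had 0 counts in all 4 libraries, against 23.02% of 19818 loci that share none. The F3H row therefore does not show whether the transcript was present. MYB5, a MYB factor that acts beside TT2, shares 100% of its exon bases with AT3G13530 and was likewise listed at 0 throughout. None of the other 9 members shares over 0.117% of its exon bases with another locus.

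**Figure D3:**
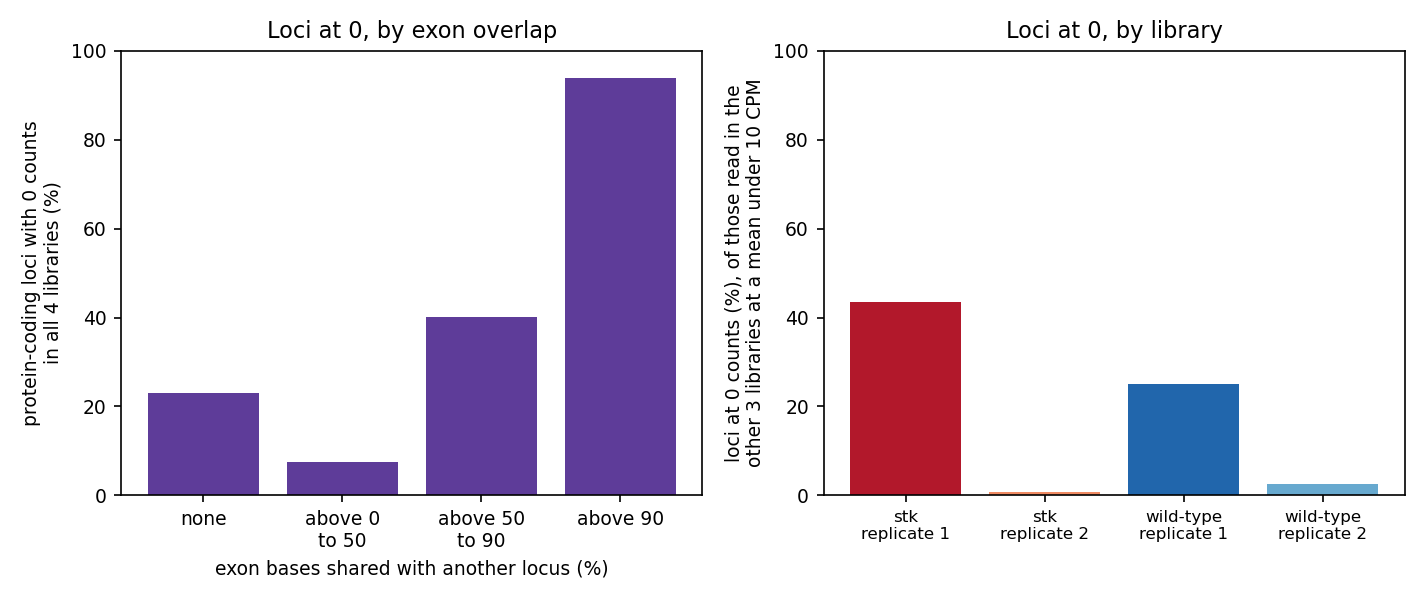
Left, the share of protein-coding loci with 0 counts in all 4 libraries (y axis, percent) by the share of exon bases that the locus has in common with another locus (x axis). Right, for each library (x axis), the share of loci with 0 counts among those read in the other 3 libraries at a mean under 10 CPM (y axis, percent). The left bars reach 93.94% above 90% overlap, and the right bars reach 43.5% and 0.743% in stk replicates 1 and 2 and 25.0% and 2.66% in wild-type replicates 1 and 2.

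FLS1, which makes flavonols from dihydroflavonols, had the smallest ratio of highest to lowest CPM among the members read. It stood at 55.4 and 66.7 CPM in stk, against 50.4 and 80.7 CPM in wild type, and the stk values lay inside the wild-type range. The means were 61.0 ± 8.02 CPM in stk and 65.5 ± 21.4 CPM in wild type (SD, n = 2 each), and the log2 fold change was -0.10 ± 0.44 (SE; edgeR adjusted p = 1). The direction turned with the library left out, from -0.38 without wild-type replicate 1 to 0.28 without wild-type replicate 2.

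BAN did not detectably differ between stk and wild type, and its value rested on which libraries were read. It had 0 and 82 counts in stk, against 56 and 40 counts in wild type, which is 0 and 6.75 CPM in stk, against 10.1 and 3.67 CPM in wild type. stk replicate 2 lay between the wild-type libraries, and stk replicate 1 lay below both. A count of 0 in stk replicate 1 allows up to 0.776 CPM (3 counts, covering counting error only). At the share found in stk replicate 2, BAN would have given 27.3 counts in stk replicate 1. The log2 fold change was -1.0 ± 2.17 (SE; edgeR adjusted p = 1), with a 95% interval from -6.03 to 4.03. It was -0.022 without stk replicate 1 and -8.54 without stk replicate 2.

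DFR, which starts the branch towards anthocyanidins, had the same pattern as BAN. It stood at 0 and 5.43 CPM in stk, against 8.82 and 1.74 CPM in wild type, and the groups overlapped. The log2 fold change came to -0.93 ± 2.36 (SE; adjusted p = 1 in edgeR), and its direction turned when a library was left out, to 0.048 without stk replicate 1 and to 0.68 without wild-type replicate 1. LDOX, the next enzyme, lay the other way, with 25 and 56 counts in stk, against 0 and 14 counts in wild type. That is 6.47 and 4.61 CPM in stk, against 0 and 1.29 CPM in wild type, so that the groups did not overlap. Its log2 fold change, 3.03 ± 2.57 (SE; adjusted p = 1 in edgeR), had a 95% interval from -2.94 to 9.01 and ran from 2.12 to 8.32 as single libraries were left out.

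Ratios within a library, which do not depend on the scaling between libraries, set the branches of the pathway against each other. The log2 ratio of BAN to LDOX per coding length, with 0.5 added to each count, was -5.61 and 0.61 in stk, against 6.89 and 1.55 in wild type. Both stk ratios lay below both wild-type ratios, and the exact two-sided permutation p was 0.333, the smallest that 2 libraries against 2 can give. The log2 ratio of TT4 to FLS1 was -1.86 and -2.70 in stk, against -2.79 and -4.82 in wild type (exact permutation p = 0.333, two-sided). The log2 ratio of FLS1 to DFR was 8.93 and 3.79 in stk, against 2.69 and 5.68 in wild type, and these groups overlapped (exact permutation p = 0.667, two-sided). These 3 ratios were a family of 3 comparisons, in which no p could reach 0.05. The ratios that involve a gene at 0 depend on the added 0.5.

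Counts of 0 were common in stk replicate 1 at this level of expression. Of 17188 loci read in the other 3 libraries, 11.9% were at 0 there, and of the 3737 loci with a mean under 10 CPM in the other 3, 43.5% were. Among the members, 8 were read in the other 3 libraries and 3 of these (BAN, DFR and TT8) were at 0. Of the 4 members under 10 CPM, 3 were at 0, and TT4 was read. The same share of loci under 10 CPM was 0.743% in stk replicate 2, 25.0% in wild-type replicate 1 and 2.66% in wild-type replicate 2. The library with most such zeros was also the shallowest. Wild-type replicate 1, in which LDOX was at 0, had the next largest share. The part of depth in the values of BAN, DFR, TT8 and LDOX was not tested.

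Among the regulators, TT2 and TTG1 were read in every library, and TT8 was read at 6.30 CPM in wild-type replicate 1 and near or at 0 in the other 3 libraries. TT2, the MYB factor of proanthocyanidin synthesis, stood at 52.8 and 93.2 CPM in stk, against 36.3 and 67.8 CPM in wild type, and the groups overlapped (log2 fold change 0.49 ± 0.51, SE; adjusted p = 1 in edgeR). TTG1, the WD40 protein that also acts in trichomes and root hairs, stood at 24.1 and 34.8 CPM in stk, against 17.5 and 35.5 CPM in wild type, and the groups overlapped (log2 fold change 0.15 ± 0.62, SE; adjusted p = 1 in edgeR). In both genotypes TT2, TTG1 and FLS1 were higher in replicate 2 than in replicate 1. TT8, the bHLH factor, had 0 and 13 counts in stk, against 35 and 4 counts in wild type. The wild-type libraries lay far apart, and the groups overlapped. The gap between replicates, averaged over the genotypes on the log2 CPM scale, was larger than the difference between genotypes for 6 of the 8 tested members and for 67.6% of all genes tested. The exceptions were TT4 and LDOX.

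The other genes of the pathway had no call either. Of 52 genes in 4 lists, 27 passed the filter and 0 were called by edgeR, DESeq2 or limma-voom, which called 0.00553%, 0.857% and 0.205% of all genes tested. edgeR gave 3 of the 27 an unadjusted p under 0.05, against 3.36% of all genes tested. Of the 7 other structural genes (enzymes of the pathway and relatives of such enzymes), 4 were tested (3 positive and 1 negative, median log2 fold change 0.75). This median was -0.55 without stk replicate 2, 1.34 without stk replicate 1, 1.35 without wild-type replicate 2 and 0.18 with the replicate number as a block. FLS2, a relative of FLS1 on the same chromosome, stood at 26.7 and 33.5 CPM in stk, against 10.4 and 2.75 CPM in wild type. Both stk values lay above both wild-type values (log2 fold change 2.20 ± 0.91, SE; adjusted p = 1 in edgeR), and this was 1 of the 3 genes just counted. How reads shared between related genes were counted is not given, and their part in the value of FLS2 was not tested. FLS3, FLS4 and FLS5 were listed at 0 throughout. TT7, which adds the second hydroxyl group of the flavonoid B ring, stood at 5.69 and 8.80 CPM in stk, against 27.5 and 2.66 CPM in wild type, and the groups overlapped.

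Genes that decorate flavonols and anthocyanins were split in direction, with 5 of 9 tested positive, 4 negative and a median log2 fold change of 0.014. The median ran from -0.087 without stk replicate 2 to 0.60 without wild-type replicate 1, and was -0.016 in DESeq2 and 0.505 in limma-voom. OMT1, a methyltransferase of flavonols that also acts in lignin synthesis, stood at 443 and 63.9 CPM in stk, against 50 and 40.9 CPM in wild type. Its log2 fold change was 2.48 ± 0.81 (SE; adjusted p = 1 in edgeR, 1 of those 3 genes), and stk replicate 1 alone stood far above the rest. UGT78D1, a flavonol rhamnosyltransferase, stood at 113 and 161 CPM in stk, against 57.0 and 97.5 CPM in wild type, so that the groups did not overlap. Its log2 fold change was 0.82 ± 0.45 (SE; adjusted p = 1 in edgeR).

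Genes that move proanthocyanidin precursors into the vacuole were low in every library, like BAN. Of the 6 genes of proanthocyanidin transport and oxidation, 3 were tested, with 2 positive and 1 negative and a median log2 fold change of 0.30, which was -0.40 without stk replicate 1, 0.71 without stk replicate 2 and -0.037 in limma-voom. AHA10, a proton pump, stood at 0 and 2.47 CPM in stk, against 7.92 and 2.85 CPM in wild type, and the groups did not overlap (log2 fold change -2.06 ± 2.45, SE; adjusted p = 1 in edgeR). The transporter gene TT12 had 0 and 5 counts in stk, against 6 and 7 counts in wild type. The glutathione transferase gene TT19 (GSTF12) had 0 and 34 counts in stk, against 3 and 3 counts in wild type. AHA10, TT12 and TT19 were the 3 genes at 0 in stk replicate 1 out of the 5 on this list that the other 3 libraries all read. Over all loci read in the other 3 libraries, 11.9% were at 0 there, and 43.5% of those under 10 CPM. At the share found in stk replicate 2, AHA10, TT12 and TT19 would have given 10, 1.67 and 11.3 counts in stk replicate 1. TT9, which acts in vacuolar traffic, was the tested gene of this list with the lowest p, at 87.5 and 29.6 CPM in stk, against 42.8 and 35.4 CPM in wild type. TT10, a laccase that oxidises proanthocyanidins and was chosen after its values were seen, had 28 and 11 counts in stk, against 0 and 0 counts in wild type. TT10 did not pass the filter, and without the filter its adjusted p in edgeR was 1.

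Of 25 regulators of the pathway, 11 were tested, 7 positive and 4 negative, with a median log2 fold change of 0.71. The list includes repressors of the pathway and STK itself (log2 fold change -0.72), so its median gives no direction for the pathway. The median ran from 0.40 to 1.11 with a library left out, and on genes averaging 5 CPM or more it was -0.14, with 3 positive and 4 negative. LBD38, a repressor of anthocyanin synthesis, stood at 55.4 and 59.6 CPM in stk, against 26.8 and 23.7 CPM in wild type. Its log2 fold change was 1.19 ± 0.46 (SE; adjusted p = 1 in edgeR, the last of those 3 genes), and the groups did not overlap. EGL3, a bHLH factor related to TT8, had 35 and 61 counts in stk, against 0 and 15 counts in wild type. Its groups did not overlap, as with LDOX, and its log2 fold change was 3.28 ± 2.42 (SE; edgeR adjusted p = 1). MYBL2, a repressor of the pathway that was chosen after its values were seen, had 30 and 17 counts in stk, against 0 and 3 counts in wild type (edgeR adjusted p = 1). TT16, a MADS-box factor that acts with STK in the seed coat, was listed at 0 in all 4 libraries and shares no exon bases with another locus. A count of 0 allows up to 0.776 and 0.247 CPM in stk, and 0.540 and 0.275 CPM in wild type, in replicates 1 and 2.

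**Figure D4:**
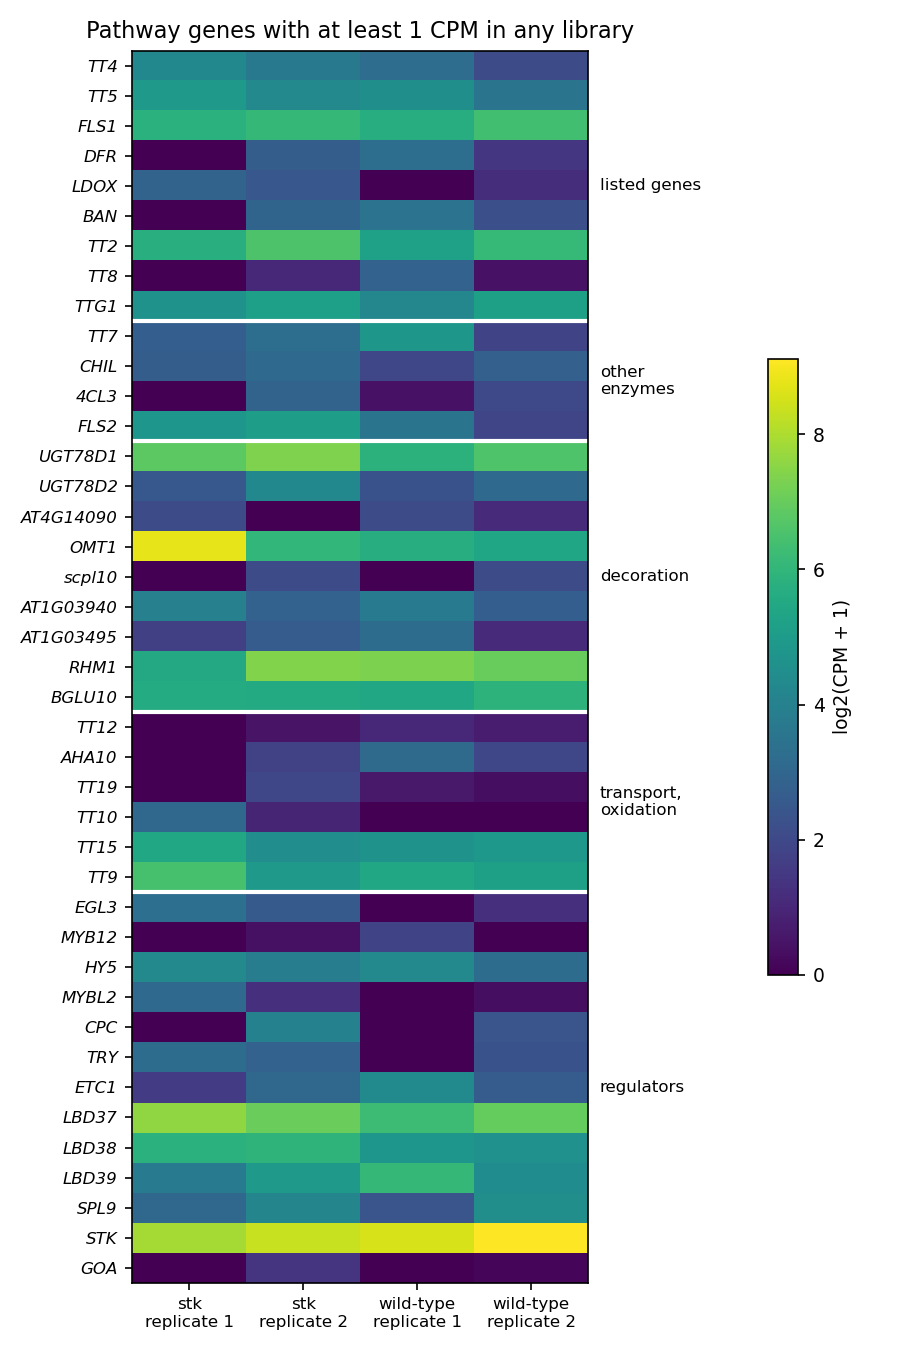
Log2(CPM + 1), as colour, of the 41 members and pathway genes with at least 1 CPM in any library (rows) in each library (columns). The rows of BAN, DFR, TT8, AHA10, TT12 and TT19 are dark in stk replicate 1, and those of LDOX, EGL3 and MYBL2 are dark in wild-type replicate 1.

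Markers of seed tissues that dissected funiculi could carry were summed beside these values. The 12 seed coat markers outside the flavonoid pathway summed to 1050 and 745 CPM in stk, against 1000 and 529 CPM in wild type. Each had a count in at least 1 library. NARS1 gave 364 and 89.3 CPM of this sum in stk, against 447 and 43.3 CPM in wild type. SBT1.7 gave 225 and 185 CPM in stk, against 214 and 126 CPM in wild type. CESA5 gave 210 and 202 CPM in stk, against 160 and 189 CPM in wild type. PRX36 was read at 2.33 CPM in stk replicate 1 and had no counts elsewhere. Of the 11 seed coat markers tested, 9 were positive, 2 negative and 0 called. Groups did not overlap with stk higher for 4 of the 11 (MUM4, MUM2, MYB61 and CESA5), against 15.9% of all genes tested. For 0 of the 11 they did not overlap with stk lower, against 16.6%. MUM2 stood at 16.0 and 19.3 CPM in stk, against 5.76 and 0.367 CPM in wild type. MYB61 stood at 21.0 and 49.0 CPM in stk, against 9.54 and 0.184 CPM in wild type. The 9 embryo markers summed to 68.1 and 0.411 CPM in stk, against 240 and 1.29 CPM in wild type. In wild-type replicate 1, CRC gave 95.2, AT2S3 74.5, CRA1 48.8 and OLEO1 20.5 CPM of this sum. LEC2 and ABI3 were at 0 in every library. LEC1 went the other way, with 20 and 3 counts in stk, against 0 and 0 counts in wild type. The 6 endosperm markers summed to 29.8 and 13.0 CPM in stk, against 5.76 and 6.70 CPM in wild type, with PHE1 and MEA at 0 throughout. FIS2 alone gave 29.8 and 8.39 CPM of this sum in stk, against 5.22 and 4.13 CPM in wild type. The embryo sum was highest in wild-type replicate 1, in which BAN, DFR, TT8, TT7 and AHA10 were also highest. LDOX, EGL3 and MYBL2 had no counts in that library. The seed coat sum was highest in stk replicate 1, in which BAN, DFR, TT8 and AHA10 had no counts and TT4 and TT5 were highest. The part of seed tissue in the values of these genes was not tested.

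By likeness of pattern, measured as the Euclidean distance of log2 CPM centred over the 4 libraries among 15570 genes that averaged 5 CPM or more, the genes nearest to BAN were AT4G21310 (0.0585), AT5G07285 (0.352) and AT3G18960 (0.358). Each of these was at 0 CPM in stk replicate 1. Those nearest to TT2 were maMYB (0.0807), AT5G03180 (0.0841) and AGD15 (0.085). With 4 libraries many genes share a pattern, and these distances are a description.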

How the data were processed

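The authors deposited raw read counts per locus, with 1 column per library; the values are whole numbers. The tools listed, per the submitters' processing notes, are featureCounts 1.6.3, STAR 2.7.0, Trimmomatic 0.38 and DESeq2 1.38.3, without their roles. Genome build, annotation, strand setting and treatment of shared reads: not given in the sources used here. RefSeq's TAIR10.1 annotation held all 37051 loci and gave names, exon overlaps, coding lengths and promoter sequences, and its own coordinates are printed. Protein sequences were not used here.

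Counts were tested with edgeR 4.0.16 in R 4.3.3 (quasi-likelihood, TMM scaling, filterByExpr with 18092 genes kept, genotype as the single term, Benjamini-Hochberg adjustment over all genes tested, threshold 0.05). Standard errors and 95% intervals come from the quasi-likelihood F statistic. CPM values are TMM-scaled. The code was run on simulated data, and recovery was required only for edgeR at a dispersion set below that of these data. That check does not show what could be detected here. Alternatives were DESeq2 1.42.0, limma-voom (limma 3.58.1), other scalings and filters, a replicate block and each library left out. Totals were 4033589 and 12099218 counts in stk and 5757066 and 10229588 counts in wild type, and low depth widens the error of low genes. The members and lists were chosen with earlier results of these data known. All 10 members are named; of each pathway and regulator list, genes past the threshold or otherwise the 2 tested genes with the lowest p are named, with STK, EGL3, MYB5, TT16, TT7, TT12, AHA10 and TT19.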

Additional observations from a re-analysis of the deposited data

How the results depend on the processing

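No member was called in edgeR, DESeq2 or limma-voom, nor under any other scaling, filter, block or left-out library. Over all genes, edgeR called 1 gene, and DESeq2 called 155, limma-voom 37, edgeR without the filter 275, edgeR on genes averaging 5 CPM or more 0 and edgeR with the replicate number as a block 169. With a library left out it called 0 without either stk library, 18 when wild-type replicate 1 was left out and 49 when wild-type replicate 2 was. Among the 52 other pathway genes, 1 was called without the filter (OMT1, adjusted p = 0.000152) and 0 otherwise. The cause of these differences was not tested. With a library left out, the log2 fold change reversed for FLS1 (-0.38 to 0.28), DFR (-8.16 to 0.68) and TTG1 (-0.24 to 0.76), and the difference of the log2 ratio of FLS1 to DFR between stk and wild type ran from -0.39 to 4.75, against 2.18 with all 4 libraries. The other 5 tested members kept their direction in every fit, but with a library left out TT4 ran from 0.82 to 2.20, TT5 from 0.097 to 1.20 and TT2 from 0.017 to 1.01. In these fits the lone library of a genotype is assumed to vary like the other group. The order of levels changed for 4 members with gene span as the length, for 2 with exon length (added after seeing the data) and for 2 without length scaling. The labels do not say that replicate numbers mark a shared batch: deviations of same-numbered libraries from their group means had a correlation of 0.245 across genes. BAN, DFR, LDOX and TT8 each had 82 counts or fewer per library, and the part of depth in their values was not tested.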
